A study of Mus musculus with 9 samples.

Results

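The phosphofructokinase isoforms Pfkl, Pfkm and Pfkp and the PFKFB regulators Pfkfb2, Pfkfb3 and Pfkfb4 were followed in neutrophils of tumor-bearing mice. They are 6 of the 46517 genes in the deposited table and were taken from it by gene symbol. All 6 had at least 5 reads in at least 1 library and were tested, among 17714 genes in all. Neutrophils were sorted from the bone marrow (Ly6G.hi), the blood (Ly6G+) and the tumor (Ly6G+) of C57BL/6 mice on day 27 after orthotopic transplantation (OT) of pancreatic ductal adenocarcinoma (PDAC) cells. The transplanted cells were a luciferase-expressing line from a genetic mouse model of this cancer, and they were injected into the pancreas. All 3 compartments therefore came from mice that carried a tumor, and the tumor came from 1 line. The sort kept DAPI-negative CD45+ cells without the lymphocyte markers CD3, B220 and NK1.1 that carried both Ly6G and Ly6C. There were 3 libraries for each compartment, each made from pooled mice. No mouse without a tumor was analysed here, and ages were not given in the sources used here.

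Phosphofructokinase commits sugar to glycolysis: it phosphorylates fructose 6-phosphate to fructose 1,6-bisphosphate. The enzyme is a tetramer built from the liver (PFKL), muscle (PFKM) and platelet (PFKP) subunits, which can mix. PFKFB enzymes are bifunctional: they make and remove fructose 2,6-bisphosphate, the strongest allosteric activator of phosphofructokinase. PFKFB3 has mostly kinase activity, PFKFB2 is the heart form, and PFKFB4 has both activities. Neutrophils rely on glycolysis for most of their ATP, and HIF-1, the oxygen-sensitive transcription factor, is known to act on several glycolysis genes, Pfkfb3 and Pfkfb4 among them.

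The promoters are shown because the HIF core motif, ACGTG or GCGTG, is the best known sequence link between oxygen and these genes. Windows of 250 bases before each start were read from RefSeq (GRCm38.p6, the build of the deposited table), where all 6 genes were matched with 12 windows. Both strands were searched, and matches stand in capitals below. CACGTG, the E-box, holds ACGTG on both strands and so counts as 2 matches. Of all 32851 windows in that table, 16.6% held ACGTG, 28.2% held GCGTG, 38.6% held either and 6.02% held CACGTG. Bases that the GENCODE M21 annotation places in an exon were left out of the 3 longer stretches, and the 2 short ones give 25 bases around a match that lies in an annotated first exon.
Pfkl, chr10:78009808-78010004, minus strand: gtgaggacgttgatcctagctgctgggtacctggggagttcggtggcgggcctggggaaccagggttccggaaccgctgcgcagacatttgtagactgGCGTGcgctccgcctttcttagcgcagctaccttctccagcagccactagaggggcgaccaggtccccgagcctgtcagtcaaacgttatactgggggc
Pfkp, chr13:6648778-6649021, minus strand: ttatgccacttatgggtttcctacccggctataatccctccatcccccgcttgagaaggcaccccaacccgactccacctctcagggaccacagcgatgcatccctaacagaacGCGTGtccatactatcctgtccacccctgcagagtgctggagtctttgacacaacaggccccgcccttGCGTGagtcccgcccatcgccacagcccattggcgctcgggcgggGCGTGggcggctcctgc
Pfkfb3, inner start, chr2:11502102-11502340, minus strand: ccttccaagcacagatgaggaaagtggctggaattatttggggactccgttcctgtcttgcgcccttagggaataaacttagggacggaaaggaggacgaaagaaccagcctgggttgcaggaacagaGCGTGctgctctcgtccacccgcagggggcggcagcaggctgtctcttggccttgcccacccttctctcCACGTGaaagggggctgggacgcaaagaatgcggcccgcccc
Pfkfb3, outer start, chr2:11553975-11553999, minus strand: ccgcgccgtgACGTGccaagctgtg
Pfkfb4, chr9:108991775-108991799, plus strand: gacggatgggGCGTGcttagtccaa
The Pfkl window held 1 GCGTG, 99 bases before the RefSeq start. GENCODE M21 begins this gene further out, at 78010083, so the Pfkl stretch lies inside the annotated gene, between its exons. The Pfkp window held 3 GCGTG, 136, 68 and 23 bases before its start. The inner Pfkfb3 window held 1 GCGTG, 122 bases before its start, and 1 E-box, and the outer one held 1 ACGTG, 60 bases before its start. The Pfkfb4 window held 1 GCGTG, so genes that were higher and a gene that was lower in tumor both carried the core. All but 1 of the 12 windows of the 6 genes held it, the exception being 1 of 4 for Pfkm. These are not 12 separate promoters. Pfkm and Pfkfb2 have several windows each, of which 2 overlap in either gene, and 1 Pfkm match lies in both of its overlapping windows. The count was therefore not compared with the share over all windows. A match is a description of these letters and not a bound site.

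The values are log2 FPKM, that is, reads scaled to library size and gene length, in which the length is the genomic span, introns included, for most genes. Whole reads could be recovered for all 46517 genes, and each library held between 4580807 and 7949367 of them. The libraries stood apart in their cell type markers. Summed over 10 neutrophil genes, among them S100a8, Csf3r and Ly6g, the level was 87700 to 95800 RPM (reads scaled to the deposited library size) in bone marrow, against 38800 to 41000 in blood and 11900 to 14500 in tumor. Its members did not all run that way: 8 of the 10 were lower and 2 were higher in blood than in bone marrow, and likewise 8 lower and 2 higher in tumor than in blood. Csf3r, the receptor of the growth factor G-CSF, was highest in blood (11800 to 13400 RPM) and at 2080 to 2840 in bone marrow and 2240 to 3030 in tumor. The 6 markers of immature and dividing neutrophils, among them Mpo and Elane, summed to 1610 to 2180 RPM in bone marrow, against 32.1 to 46.9 in blood and 88.6 to 140 in tumor, with 6 of 6 lower in blood and in tumor than in bone marrow. The 10 pancreatic tumor epithelium markers, among them Krt8, Krt18 and Epcam, summed to 2700 to 5130 RPM in tumor, against 25.4 to 173 in blood and 10.1 to 13.6 in bone marrow, and 10 of 10 were higher in tumor than in either other compartment. All 6 fibroblast markers were also higher in tumor (964 to 1110 RPM, against at most 9.72 elsewhere), as were 5 of the 5 acinar markers tested (384 to 1580, against at most 7.52), with the remaining acinar marker at 0 reads in tumor. In blood, the 4 platelet markers summed to 489 to 676 RPM, against at most 11.1 elsewhere. The 8 macrophage and monocyte markers summed to 1490 to 1670 RPM there, against at most 585. Of these 8, 3 were higher and 0 lower in blood than in bone marrow, although their median log2 difference was -0.37. Compared with blood, 1 was higher and 2 were lower in tumor, with a median of 0.84. The median thus ran against the sum in both comparisons. The 4 red cell markers summed to 251 to 514 RPM in blood, against at most 116 elsewhere. The part of these other cells and of neutrophil maturity in the results below was not tested. In bulk samples such as these, fewer cells of a type and less RNA per cell cannot be told apart.

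**Figure D1:**
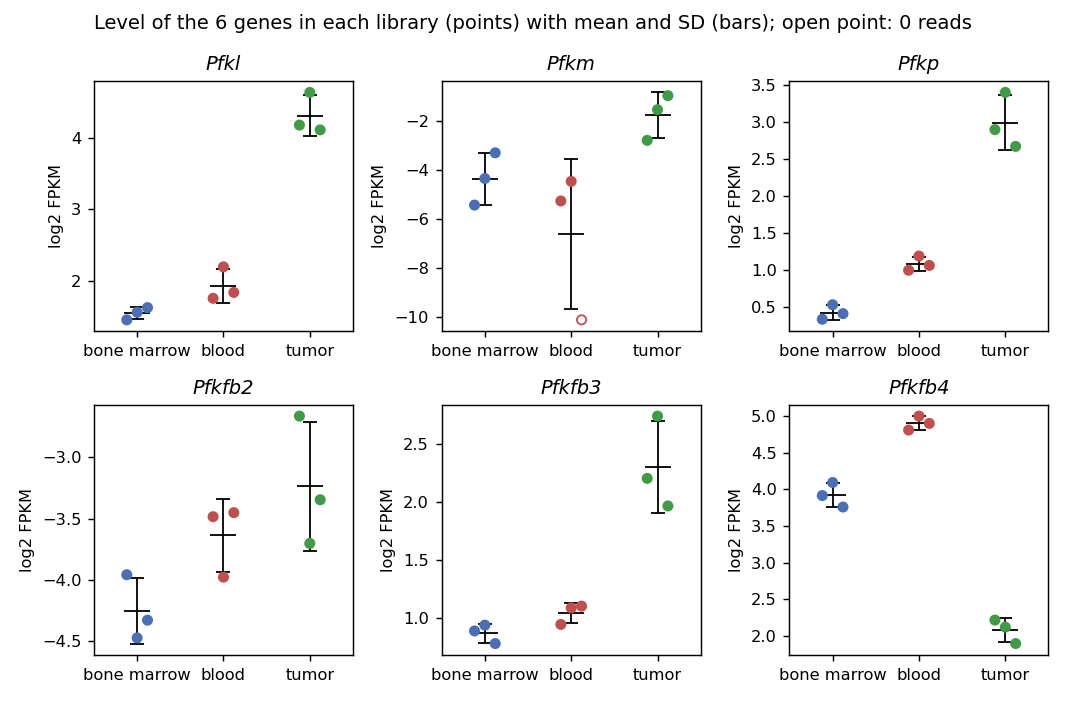
Level of each of the 6 genes, in log2 FPKM on the y axis, in the bone marrow, blood and tumor libraries. Points are libraries in the order of their numbers, bars give the mean and SD of 3 libraries, and the open point marks the blood library with 0 Pfkm reads. The 3 tumor points lie above all others for Pfkl, Pfkm, Pfkp and Pfkfb3 and below all others for Pfkfb4.

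The comparison of tumor with blood asks how the enzymes that set the pace of glycolysis differ between neutrophils in the tumor and those in circulation. Of the 6 genes, 4 were higher in tumor (Pfkl, Pfkp, Pfkm and Pfkfb3) and 1 was lower (Pfkfb4), at a Benjamini-Hochberg adjusted p under 0.05 from limma, a linear model fitted to every gene with variances shared between genes. Of all 17714 genes tested, 32.4% were higher and 20.2% lower in that comparison. Against bone marrow, 3 of the 6 were higher in tumor (Pfkl, Pfkp and Pfkfb3) and 1 was lower (Pfkfb4), where 25.2% of all genes were higher and 18.4% lower. Between the 2 compartments outside the tumor, 2 of the 6 were higher in blood than in bone marrow (Pfkp and Pfkfb4) and 0 were lower, where 12.6% of all genes were higher and 16.3% lower. At an unadjusted p under 0.05 from limma the lower count there was also 0, as it was with limma-voom on the recovered reads. The study's glycolysis genes were grouped by their high level in these same tumor libraries. The paper's text, apart from its figures, does not name Pfkl, Pfkp or Pfkm among them. Their direction is not independent evidence in any case, since the libraries are the same. The median log2 fold change between tumor and blood was 2.38 over the 3 phosphofructokinase genes, 0.40 over the 3 PFKFB genes and 0.50 over all genes tested.

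Pfkl, the liver subunit, had the largest tumor excess of the well-read members. The gene (ENSMUSG00000020277.9) lies on chromosome 10 at 77986947 to 78010083 of GRCm38, minus strand. Its level was 2.74, 2.94 and 3.08 FPKM in the bone marrow libraries, 3.37, 4.58 and 3.57 FPKM in blood and 18.1, 24.9 and 17.3 FPKM in tumor. The lowest tumor library stood far above the highest of the other 6, and the blood and bone marrow libraries did not overlap either. The log2 fold change was 2.38 (SE 0.18, adjusted p = 2.05e-05, 5.22-fold) against blood and 2.77 (SE 0.18, adjusted p = 1.14e-05, 6.81-fold) against bone marrow, in limma with 3 libraries a compartment. The blood level exceeded that of bone marrow by 0.38 (SE 0.18, adjusted p = 0.149), which did not pass the test, with an interval of -0.03 to 0.79. The reads behind these levels were 385 to 473 in bone marrow, against 308 to 591 in blood and 2604 to 4357 in tumor.

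Pfkp, the platelet subunit, was higher in tumor too, and unlike Pfkl it also passed the test between blood and bone marrow. A pass beside a miss does not show that the 2 genes differ in that respect. Their ratio is given further on, but with 3 libraries a side its test between 2 compartments cannot go below 0.1. It lies on chromosome 13 at 6579768 to 6648777 (ENSMUSG00000021196.12, minus strand). Its level was 1.26, 1.45 and 1.33 FPKM in bone marrow, 2.00, 2.28 and 2.09 FPKM in blood and 7.44, 10.5 and 6.36 FPKM in tumor. The 3 compartments formed 3 separate ranges, with bone marrow lowest and tumor highest. The log2 fold change was 1.90 (SE 0.19, adjusted p = 9.31e-05) against blood and 2.56 (SE 0.19, adjusted p = 2.38e-05) against bone marrow. Between blood and bone marrow it was 0.66 (SE 0.19, adjusted p = 0.0349). That last call was lost when any 1 of the 6 blood and bone marrow libraries was left out (adjusted p between 0.0617 and 0.103), although the fold change stayed between 0.60 and 0.71. Platelet markers were higher in blood as well, as given above, with 4 of 4 passing. Pitrm1, on the opposite strand, overlaps the end of Pfkp, with 5 to 440 reads a library against 544 to 5498 for Pfkp, and the libraries carried no strand.

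Pfkm, the muscle subunit, was close to the limit of detection outside the tumor. It lies on chromosome 15 at 98092589 to 98132451 (ENSMUSG00000033065.12, plus strand). Its reads were 6, 11 and 27 in the bone marrow libraries, 4, 10 and 0 in blood and 36, 105 and 164 in tumor. The 3 tumor libraries lay above the other 6, but they spread more among themselves than for any other member, and blood and bone marrow overlapped. In FPKM the level was 0.0587 ± 0.0405 in bone marrow and 0.338 ± 0.186 in tumor (SD, n = 3). It was 0.0263 and 0.0458 FPKM in the first and second blood library, and the third, without a read, stood under the 0.0161 FPKM that 3 reads would give.

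The fitted log2 fold change of Pfkm between tumor and blood was 4.86 (SE 1.41, adjusted p = 0.0189). Its size depends on the constant that stands in for the blood library with 0 reads: it was 3.10 (adjusted p = 0.0165) without that library and 1.74 (adjusted p = 0.00324) with 0.1 added to the FPKM. The call was lost without the second or the third tumor library (adjusted p = 0.0599 and 0.0727) and without a filter on reads (0.102). Against bone marrow the fold change was 2.60 (SE 1.41, adjusted p = 0.167) and did not pass, whereas it passed under 5 of 20 alternatives. It passed without the third blood library (adjusted p = 0.023), with limma-voom on the recovered reads (0.00967) and with these 2 compartments fitted alone (0.0335). The constant mattered here too, as it passed with a pseudocount of 0.1 (adjusted p = 0.0112) and of 1 (0.0186). Senp1, which overlaps the start of Pfkm on the opposite strand, had 113 to 336 reads a library. Among the 3 tumor libraries, Pfkm was highest in the third and Pfkl, Pfkp and Pfkfb3 in the second. The third had the highest epithelium (5130 RPM), acinar (1580) and fibroblast (1110) sums of the 3, and the second the highest macrophage and monocyte (585), endothelium (111) and red cell (116) sums and the lowest epithelium (2700) and acinar (384) sums. An order of 3 libraries was not tested, nor was the part of any of these cells in the levels.

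Pfkfb4, which encodes one of the bifunctional regulators, ran the other way. It lies on chromosome 9 at 108991778 to 109032228 (ENSMUSG00000025648.16, plus strand). Its level was 15.1, 17.1 and 13.5 FPKM in bone marrow, 28.1, 32.0 and 29.9 FPKM in blood and 4.64, 4.34 and 3.72 FPKM in tumor. The 3 ranges were separate, with blood highest and tumor lowest. The log2 fold change was -2.83 (SE 0.13, adjusted p = 3.96e-06, 7.11-fold lower) between tumor and blood and -1.85 (SE 0.13, adjusted p = 1.78e-05, 3.60-fold lower) between tumor and bone marrow. Between blood and bone marrow it was 0.98 (SE 0.13, adjusted p = 0.00102). Between 1165 and 7235 reads a library stood behind these values, and no annotated gene overlaps Pfkfb4. The neutrophil marker sum was lowest in tumor too and highest in bone marrow, while Csf3r, one of these markers, was highest in blood as Pfkfb4 was. Their part in the Pfkfb4 levels was not tested.

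Pfkfb3, whose product favours the making of fructose 2,6-bisphosphate, was higher in tumor. It lies on chromosome 2 at 11471433 to 11554077 (ENSMUSG00000026773.18, minus strand). Its level was 1.85, 1.92 and 1.72 FPKM in bone marrow, 1.93, 2.13 and 2.15 FPKM in blood and 4.61, 6.70 and 3.91 FPKM in tumor. All tumor libraries stood above all others, and the bone marrow and blood ranges nearly touched. The log2 fold change was 1.26 (SE 0.20, adjusted p = 0.000982) against blood and 1.44 (SE 0.20, adjusted p = 0.000595) against bone marrow. Between blood and bone marrow it was 0.18 (adjusted p = 0.571), with an interval of -0.28 to 0.63. The reads ranged from 629 to 4184 a library, and the overlapping Gm10851, on the opposite strand, had 17 to 79.

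Pfkfb2, the heart form, was barely read, with 10 to 17 reads in each of the 6 bone marrow and blood libraries and 39, 23 and 31 reads in tumor. It lies on chromosome 1 at 130689182 to 130729253 (ENSMUSG00000026409.13, minus strand). Its level was 0.0530 ± 0.0101 FPKM in bone marrow, 0.0814 ± 0.0156 FPKM in blood and 0.111 ± 0.0419 FPKM in tumor (SD, n = 3). The tumor libraries lay above those of bone marrow and overlapped those of blood. No comparison passed: the log2 fold change was 1.02 (SE 0.43, adjusted p = 0.0901) between tumor and bone marrow, 0.40 (adjusted p = 0.461) between tumor and blood and 0.62 (adjusted p = 0.35) between blood and bone marrow. Quantile normalization turned the first and second of these to -0.50 and -1.25, again not called. The difference from bone marrow passed, in turn, under 4 alternatives: a pseudocount of 0.1 (adjusted p = 0.0494), plain library totals (0.0273), no variance trend (0.0362) and the second tumor library left out (0.0438). Yod1, inside Pfkfb2 on the opposite strand, had 113 to 336 reads a library, more than Pfkfb2 in any of them.

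**Figure D2:**
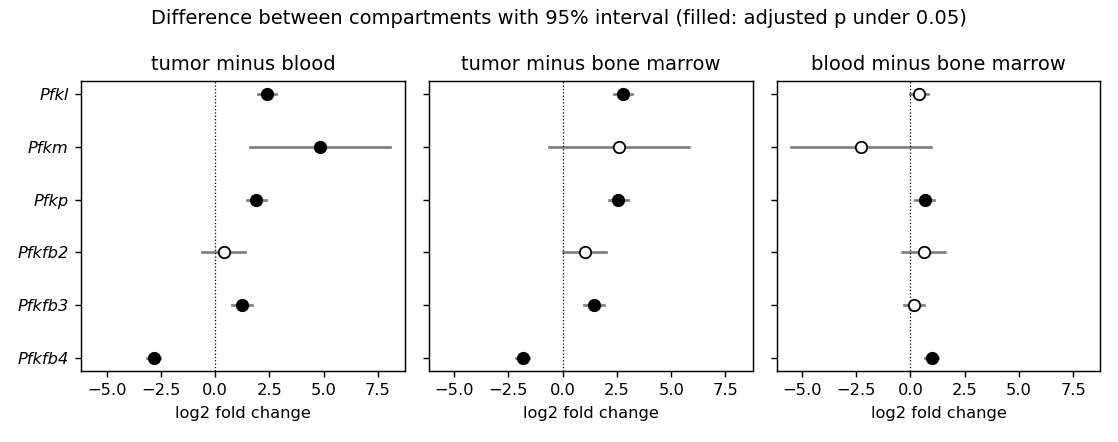
Difference in log2 FPKM between compartments for each gene (x axis), as the limma fold change (points) with its 95% interval (lines). Filled points passed an adjusted p of 0.05. Pfkl, Pfkp and Pfkfb3 lie to the right of 0 and Pfkfb4 to the left in both tumor comparisons, and the Pfkm intervals are the widest.

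Ratios between 2 genes of a family within a library do not change with the library scaling, and their differences between compartments do not change with the gene length. The 6 ratios were compared over the 3 compartments by an exact permutation test over all 280 ways to put 9 libraries into 3 groups of 3, in which 0.00357 is the smallest p, with adjustment over the 6. Pairs of compartments were compared by two-sided exact permutation tests, and with 3 libraries on each side these cannot go below 0.1.

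The Pfkfb3 to Pfkfb4 ratio set the tumor apart. The linear ratio of the FPKM values was 0.123, 0.112 and 0.127 in bone marrow, 0.0686, 0.0664 and 0.0719 in blood and 0.994, 1.54 and 1.05 in tumor. The ranges were separate, blood lowest and tumor highest, and the compartments held 99.1% of the sum of squares of the log2 ratio (exact permutation p = 0.00357, adjusted p = 0.0107). The log2 ratio was 4.09 higher in tumor than in blood and 3.28 higher than in bone marrow, and the difference of blood from bone marrow was -0.81 (exact permutation p = 0.1 for each pair, the smallest possible). Both genes moved in the tumor: Pfkfb3 up and Pfkfb4 down.

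The Pfkp to Pfkl ratio varied far less but also separated the compartments. It was 0.461, 0.491 and 0.432 in bone marrow, 0.592, 0.498 and 0.585 in blood and 0.410, 0.423 and 0.367 in tumor. Blood libraries were highest and tumor libraries lowest without overlap, though the second blood library (0.498) lay close to the second bone marrow library (0.491). The compartments held 81.4% of the sum of squares (exact permutation p = 0.00357, adjusted p = 0.0107), and the log2 ratio differed by 0.27 between blood and bone marrow, by -0.48 between tumor and blood and by -0.21 between tumor and bone marrow (exact permutation p = 0.1 for each pair). Relative to Pfkp, Pfkl was thus highest in the tumor libraries.

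The Pfkfb2 to Pfkfb4 ratio also differed over the compartments, with mean log2 values of -8.18 in bone marrow, against -8.54 in blood and -5.31 in tumor (exact permutation p = 0.0143, adjusted p = 0.0286), and between tumor and blood Pfkfb4 made up 2.83 of the log2 difference of 3.23. The 3 remaining ratios, which rest on the low Pfkm or Pfkfb2 reads, did not pass (exact permutation p between 0.125 and 0.225).

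**Figure D3:**
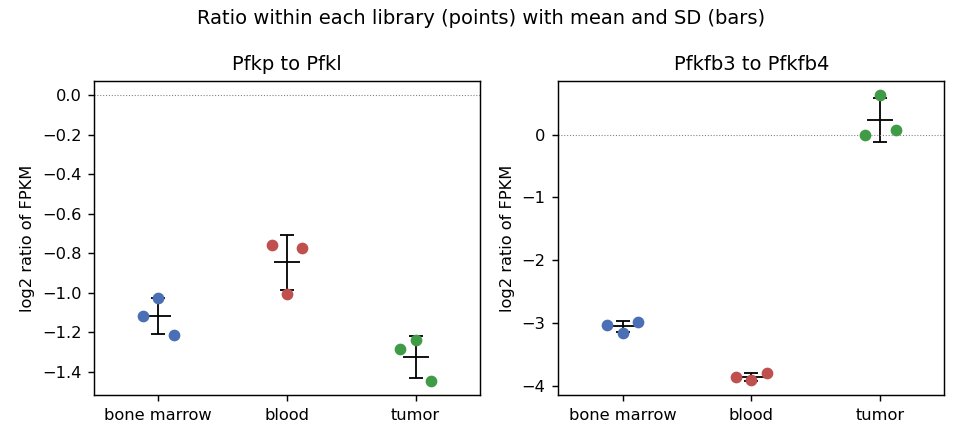
Log2 ratio of FPKM within each library (y axis) for Pfkp to Pfkl and Pfkfb3 to Pfkfb4, by compartment. Points are libraries and bars the mean and SD of 3 libraries. The Pfkfb3 to Pfkfb4 ratio is near 0 in the tumor libraries and between -3.91 and -2.98 elsewhere.

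Isoform shares followed from these levels. Summed over the 3 phosphofructokinase genes, the level was 4.32 ± 0.265 FPKM in bone marrow, 5.98 ± 0.805 FPKM in blood and 28.6 ± 6.31 FPKM in tumor (SD, n = 3). Summed over Pfkfb2, Pfkfb3 and Pfkfb4 it was 17.1 ± 1.87, 32.1 ± 2.06 and 9.42 ± 1.69 FPKM in the same order. The phosphofructokinase sum was higher in every tumor library than in any other, and stayed so on every scale of length and in reads alone. The PFKFB sum was lower in every tumor library than in any other on the scales with a length, but in reads alone, scaled to library size, it was 478 to 732 RPM in tumor and overlapped bone marrow (692 to 851).

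On the deposited FPKM scale, Pfkl made up 67.5% ± 1.06 of the phosphofructokinase sum in bone marrow, against 64.0% ± 2.05 in blood and 70.6% ± 0.991 in tumor (SD, n = 3). Pfkp made up 31.1% ± 1.57, 35.6% ± 2.27 and 28.2% ± 1.69 in the same order. Pfkm added 1.33% ± 0.868, 0.389% ± 0.335 and 1.23% ± 0.819. The mean shares of Pfkl and Pfkp thus differed by a few percentage points between compartments, while the sum was several-fold higher in tumor. Which subunit leads depends on the length used, because the span of Pfkp (69010 bp) is far longer than that of Pfkl (23137 bp) while their longest principal transcripts, the main coding isoforms by annotation, are alike (4145 and 3730 bp). Per base of the principal transcript, Pfkp led in every compartment with 54.2%, 59.6% and 50.8%, and Pfkl had 43.9%, 39.9% and 47.4%. On every scale of length the Pfkl share was highest in tumor and lowest in blood.

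The PFKFB mix changed more. Pfkfb4 made up 89.0% ± 0.652 of the PFKFB sum in bone marrow, against 93.3% ± 0.289 in blood and 45.5% ± 5.61 in tumor, on the deposited scale. Pfkfb3 made up 10.7% ± 0.594, 6.44% ± 0.242 and 53.3% ± 6.08, and Pfkfb2 0.313% ± 0.0717, 0.256% ± 0.0610 and 1.21% ± 0.495. In the single tumor libraries the Pfkfb3 share was 49.0%, 60.3% and 50.6%, so on this scale it did not lead in every one. Per base of the principal transcript it averaged 63.7% in tumor, against 9.57% in blood and 15.6% in bone marrow. Pfkfb4 thus held most of the PFKFB sum outside the tumor on every scale, and Pfkfb3 had the larger mean share in tumor on every scale.

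**Figure D4:**
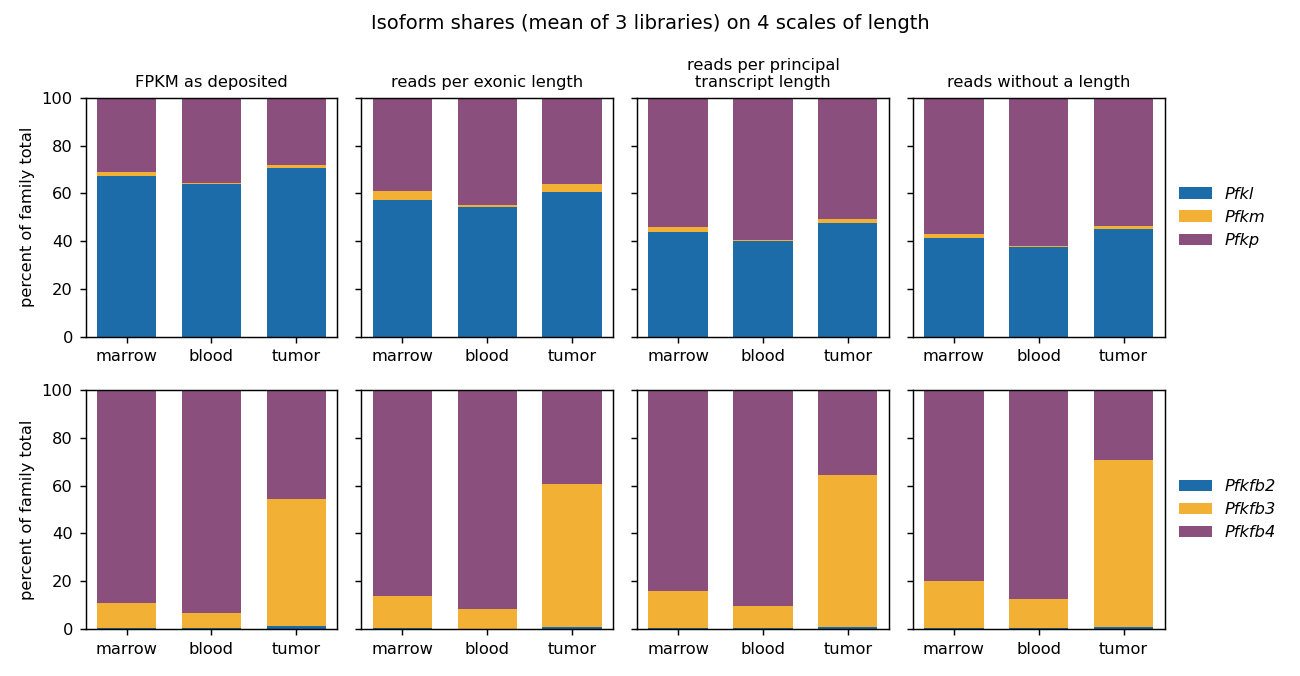
Mean share of each gene in its family sum (y axis, percent, 3 libraries a compartment) on the deposited FPKM scale, per base of all exons, per base of the principal transcript and in reads alone. The upper row has the phosphofructokinase genes, the lower the PFKFB genes. The Pfkl share runs from 37.5% to 70.6% with the scale and the compartment, and the tumor Pfkfb3 share from 53.3% to 69.9%.

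Of 8 genes at the fructose 6-phosphate node, 2 were higher and 1 was lower in tumor than in blood, where 32.4% of all genes were higher and 20.2% lower (median log2 fold change 1.59, against 0.50 over all genes). Against bone marrow, 3 of the 8 were higher and 1 was lower, where 25.2% and 18.4% of all genes were (median -0.07, against 0.29). As shares of the 8, the counts against blood lie below those over all genes in both directions. Between blood and bone marrow, 1 was lower and 0 were higher, with 1 higher at an unadjusted p under 0.05 from limma and 0 with limma-voom. Gpi1, which makes fructose 6-phosphate, fell by 0.70 against blood (limma adjusted p = 0.00445) and by 1.54 against bone marrow (adjusted p = 8.51e-05), from 101 ± 5.58 FPKM in bone marrow and 56.1 ± 4.02 in blood to 35.1 ± 7.55 in tumor. Aldoc, an aldolase that splits the product of phosphofructokinase, was higher in tumor than in blood by 2.54 (adjusted p = 0.0234), with 80 to 235 reads in tumor and 11 to 35 in blood. Fbp2, the muscle fructose bisphosphatase, had 38 to 76 reads in tumor, against 0 to 7 in blood and 0 in bone marrow, and passed against both.

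The other regulators of the step were low everywhere. Fbp1, the liver fructose bisphosphatase that opposes phosphofructokinase, had 39 to 53 reads in bone marrow, against 0 to 10 in blood and 2 to 36 in tumor, and its log2 difference between tumor and blood was 1.78 (adjusted p = 0.368). Tigar, a phosphatase of fructose 2,6-bisphosphate, had 2 to 39 reads over all libraries, and its difference between tumor and blood was 1.40 (adjusted p = 0.227). Pfkfb1, the liver form of the regulator, had 0 to 18 reads over all libraries and no comparison passed (adjusted p between 0.178 and 0.928).

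Among 10 other glycolysis enzymes, 6 were higher and 1 was lower in tumor than in blood, 4 were higher and 3 lower than in bone marrow, and 0 were higher and 7 lower in blood than in bone marrow. Of all genes, 32.4% were higher and 20.2% lower in the first comparison, 25.2% and 18.4% in the second and 12.6% and 16.3% in the third. The count of 0 was the same at an unadjusted p under 0.05 from limma and with limma-voom. The medians of the 3 comparisons were 0.77, 0.08 and -0.72, against 0.50, 0.29 and 0 over all genes. Tpi1, triose phosphate isomerase, was higher in tumor than in blood by 2.86 (adjusted p = 5.36e-06) and than in bone marrow by 2.12 (adjusted p = 1.6e-05). Hk2, an inducible hexokinase, was higher in tumor than in blood by 2.28 (adjusted p = 7.29e-05). Hk3, a hexokinase of myeloid cells, fell by 2.01 against bone marrow (adjusted p = 3.23e-05). Between blood and bone marrow, where Pfkp and Pfkfb4 were higher, Pgam1 (phosphoglycerate mutase) fell by 1.33 (adjusted p = 0.000142) and Pgk1 (phosphoglycerate kinase) by 1.08 (adjusted p = 0.00127). These lists overlap the study's own glycolysis genes, and some of their members were picked from these libraries.

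Of 11 genes for kinases and a ubiquitin ligase adaptor known to act on PFKFB enzymes, 10 were tested, and Prkag3 had 0 reads. Against blood, 1 was higher and 5 were lower in tumor (median -0.96), against bone marrow 1 was higher and 6 were lower (median -0.65), and 3 were higher and 2 lower in blood than in bone marrow (median 0.08). Over all genes the medians were 0.50, 0.29 and 0, with 32.4%, 25.2% and 12.6% of genes higher and 20.2%, 18.4% and 16.3% lower. Akt1 and Akt2, kinases that phosphorylate PFKFB2 and other targets, fell by 2.17 and 1.65 in tumor against blood (adjusted p = 1.11e-05 and 2.74e-05). Prkab1, a subunit of the energy sensor AMPK, fell by 1.75 in tumor against bone marrow (adjusted p = 0.000125), whereas Prkab2, its sister subunit, was higher by 1.90 (adjusted p = 0.00199). Fzr1, the adaptor that brings PFKFB3 to its ubiquitin ligase, fell by 2.08 in blood against bone marrow (adjusted p = 0.011), and Prkab2 was higher there by 2.30 (adjusted p = 0.00148).

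Of 6 HIF pathway genes, 3 were higher and 0 lower in tumor than in blood, 4 were higher and 1 lower than in bone marrow, and 3 were higher and 0 lower in blood than in bone marrow. Over all genes, 32.4%, 25.2% and 12.6% were higher and 20.2%, 18.4% and 16.3% lower. The medians of the 6 genes were 0.96, 1.61 and 0.73, against 0.50, 0.29 and 0 over all genes. Of the counts of 0, the one against blood was 0 at an unadjusted p under 0.05 from limma and 1 with limma-voom, and the one for blood against bone marrow was 1 and 0. Hif1a, the oxygen-regulated subunit, had 4.25 ± 0.166 FPKM in bone marrow, against 6.59 ± 1.08 in blood and 8.92 ± 1.83 in tumor (SD, n = 3). Its tumor level exceeded that of bone marrow by 1.05 (limma adjusted p = 0.00204), and its blood level exceeded that of bone marrow by 0.62 (adjusted p = 0.0357). The Hif1a difference of 0.43 between tumor and blood did not pass (adjusted p = 0.0809). Egln3, a HIF prolyl hydroxylase, was higher in tumor than in blood by 2.95 (adjusted p = 9.65e-05) and than in bone marrow by 4.78 (adjusted p = 1.07e-05). Epas1, which encodes HIF-2 alpha, had 101 to 153 reads in tumor, against 0 to 6 in blood and 0 to 2 in bone marrow and passed against both. Arnt, the partner subunit of HIF-1 alpha, was higher in blood than in bone marrow by 0.78 (adjusted p = 0.0101), beside Egln3 with 1.82 (adjusted p = 0.00285).

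The level profiles of the members over the 9 libraries were compared by Pearson correlation of log2 FPKM, as a description, since the 9 points fall into 3 compartments and share the library scaling. Pfkl and Pfkp ran together (r = 0.989), as did Pfkl and Pfkfb3 (0.978) and Pfkp and Pfkfb3 (0.981). Pfkfb4 ran against them (-0.870 with Pfkl, -0.802 with Pfkp and -0.837 with Pfkfb3). Among all genes tested, those most like Pfkl were Tnfrsf26 (0.996), Nek6 (0.994) and Rab20 (0.993), and those most like Pfkp were Tgoln1 (0.996), 1700017B05Rik (0.995) and Tnfrsf26 (0.994). Those most like Pfkfb3 were Btg2 (0.994), E230025N22Rik (0.990) and Galnt15 (0.990), the last 2 with at most 16 reads in any library. The profile of Pfkfb4 was closest to those of Rnf167 (0.999), Lsp1 (0.998), a leukocyte actin-binding protein, and Rassf5 (0.997). Closest to Pfkm were Zfp568 (0.984), Ihh (0.981) and Tsr1 (0.977), and closest to Pfkfb2 were Abi2 (0.956), Mrpl17 (0.906) and Ptgfrn (0.900), all for members with few reads.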

How the data were processed

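Libraries of 3 neutrophil compartments (bone marrow, blood and tumor) of OT mice were sequenced, 9 in all (SMARTSeq v2, full-length cDNA without strand). The authors mapped reads with STAR 2.5.2b to GRCm38 and counted genes with featureCounts 1.5.0 (versions per the submitters' processing notes). The deposited values are log2 FPKM, which the authors computed with scaled library sizes and an added constant. Recovered from the values, this constant averaged 0.2206 reads over the 9 libraries. Scaling factors were 0.796 to 0.882 in bone marrow, against 0.818 to 0.863 in blood and 1.09 to 1.22 in tumor, from the values.

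Whole reads were recovered from the steps between values (46517 of 46517 genes, tolerance 0.01), and the gene length equalled the GENCODE M21 span for 39046 of 46005 genes. Levels were compared with R 4.3.3 and limma 3.58.1 (a linear model with empirical Bayes and a variance trend, 3 compartments fitted together, genes with at least 5 reads in 1 library, Benjamini-Hochberg adjustment over 17714 genes). Tested on simulated data for tumor against blood (15790 genes), the fit called 58% of log2 changes of 1 and 100% of log2 changes of 2. Far fewer genes were changed there than were called in the data, and only genes above a minimum mean read count. These rates therefore do not carry over to members with few reads. Ratios were tested by exact permutation with scipy 1.17.1. The genes named are the 6 members, the 3 most correlated genes of each, the 2 largest called changes of each list, and Pfkfb1, Tigar, Fbp1 and Hif1a. One gene that this rule names is not reported here. The members and lists were chosen with earlier results of these data known. Alternatives were other filters, constants, scalings, variance models, limma-voom, gene lengths, a replicate block, leaving out each library and fitting only the 2 compartments compared. The labels do not tie the replicate numbers to separate experiments, so p-values measure the spread between these libraries.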

Additional observations from a re-analysis of the deposited data

How the results depend on the processing

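Of the 18 fold changes of the 6 genes, 12 kept their direction and their side of the threshold under each of the 20 to 22 alternatives, among them all 8 tumor fold changes of Pfkl, Pfkp, Pfkfb3 and Pfkfb4; the 6 others are the tumor ones of Pfkm and Pfkfb2 and those of Pfkp and Pfkfb4 between blood and bone marrow. The count of genes higher in tumor than in blood was 2 with log2 FPKM over 2 in at least 3 libraries, which leaves fewer genes to test. It was 3 with log2 FPKM over 0 in at least 3 libraries, without a filter, and without the second or the third tumor library. The count higher in tumor than in bone marrow was 5 with a pseudocount of 0.1 and 2 with log2 FPKM over 2 in at least 3 libraries. It was 4 with limma-voom, a pseudocount of 1, plain library totals, no variance trend or these 2 compartments fitted alone. Without the third blood or the second tumor library it was also 4. The count higher in blood than in bone marrow was 0 where a log2 fold change of 1 or more was also required, and 1 without a filter, with a pseudocount of 1 or without the variance trend, and it ran from 1 to 2 with a library left out. The cause of the other differences was not tested. Plain library totals raised the median of all genes by 0.449 in tumor against blood and by 0.452 against bone marrow, and no fold change of a member turned sign.

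Same-numbered libraries did not deviate together: their deviations correlated between -0.1 and 0.0236 over 9 pairs. Those of differently numbered libraries correlated between -0.0983 and 0.0849 over 18 pairs. The paper describes 3 independent experiments and compares compartments of the same mouse. With so few libraries, this check cannot show whether they were paired. With a replicate block the counts were 4 higher and 1 lower against blood, 3 and 1 against bone marrow, and 2 and 0 for blood against bone marrow, the same as without it. With the mean of each replicate number subtracted, the Pfkfb2 to Pfkfb3 ratio had a permutation p of 0.00357 (0.225 without). That permutation moved the values freely across the replicate numbers. It is therefore not an exact test with the block, and no conclusion is drawn from it.

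Family sums on other lengths were added after seeing the data: the log2 difference of the PFKFB sum between tumor and bone marrow was -0.872 as deposited and -0.389 in reads alone. Shares moved with the length. Per exonic base, per base of the principal transcript (chosen after seeing the data) and in reads alone, the Pfkl share was 57.1%, 43.9% and 41.5% in bone marrow, 54.1%, 39.9% and 37.5% in blood, and 60.5%, 47.4% and 45.0% in tumor. The Pfkfb3 share was 13.7%, 15.6% and 19.7% in bone marrow, 8.31%, 9.57% and 12.3% in blood, and 60.2%, 63.7% and 69.9% in tumor. With 0 to 27 reads outside the tumor, depth limits what can be said of Pfkm, and likewise of Pfkfb2.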
